A study of Mus musculus with 60 samples.

Results

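The genes described here encode the subunits of microtubules and the motors that walk on them: the alpha, beta and gamma tubulins, the kinesins and the cytoplasmic dyneins. They were taken from the RefSeq gene table of GRCm38.p6 by symbol, as protein-coding genes named Tuba, Tubb or Tubg with a number, Kif with a number, or Dync. The rule found 62 of 21883 protein-coding genes: 7 alpha tubulins, 8 beta tubulins, 2 gamma tubulins, 38 kinesins, 5 subunits of cytoplasmic dynein 1 and 2 of dynein 2. A peak was assigned to a member when it overlapped the gene body or the 10 kb on either side by at least 1 bp. The rule used no measured value.

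Chromatin was profiled in dorsal root ganglia, the clusters of sensory neuron cell bodies beside the spinal cord, from C57BL/6 mice aged 6 to 8 weeks. All mice were operated on, and ganglia that project into the sciatic nerve were taken 24 hours later. There were 4 groups: mice whose sciatic nerve was cut (SNA), mice with sham surgery on that nerve (Sham), mice whose spinal dorsal columns were cut (DCA), and mice with a laminectomy but no cut axons (Lam). Each ChIP sample pooled ganglia from 10 mice, each ATAC sample came from 1 mouse, and whole ganglia were used, so neurons, satellite glia, Schwann cells and other cells are mixed. The 60 samples comprised 24 ChIP samples for the histone marks H3K9ac, H3K27ac and H3K27me3, 24 inputs and 12 ATAC samples. For every assay and surgery there is 1 deposited list of peaks, made from all replicates together. No value below therefore has a replicate error, none has a p-value, and every difference is between single lists.

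Microtubules are built from alpha and beta tubulin dimers and are nucleated by gamma tubulin. In an axon they lie with their growing ends outward. Most kinesins carry vesicles and organelles toward those ends, away from the cell body, and cytoplasmic dynein 1 carries cargo and injury signals back to it. Another group of kinesins builds the mitotic spindle, and others, with dynein 2, serve the cilium. H3K9ac and H3K27ac are found at active promoters and enhancers, H3K27me3 in repressed chromatin, and ATAC peaks mark DNA that a transposase can reach.

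For 50 of the 62 members, and for 17491 of all genes, a RefSeq promoter table gave the gene start, and a start peak is a peak within 1 kb of it. Promoters are shown for 8 members whose starts stood in different states. Each is the 250 bases before the start from RefSeq (GRCm38.p6), written 5′ to 3′ along the gene, and capitals mark matches to the motifs searched on both strands. Tuba1a and Tubb3, an alpha and a beta tubulin of neurons, had ATAC, H3K9ac and H3K27ac start peaks in all 4 lists of each. Tuba1a lies at chr15:98953502-98953751, minus strand, and Tubb3 at chr8:123411303-123411552, plus strand.
Tuba1a: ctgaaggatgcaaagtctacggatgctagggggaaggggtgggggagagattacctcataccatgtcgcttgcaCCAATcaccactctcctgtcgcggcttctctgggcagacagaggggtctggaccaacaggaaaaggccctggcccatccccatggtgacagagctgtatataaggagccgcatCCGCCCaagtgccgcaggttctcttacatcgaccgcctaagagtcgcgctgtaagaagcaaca
Tubb3: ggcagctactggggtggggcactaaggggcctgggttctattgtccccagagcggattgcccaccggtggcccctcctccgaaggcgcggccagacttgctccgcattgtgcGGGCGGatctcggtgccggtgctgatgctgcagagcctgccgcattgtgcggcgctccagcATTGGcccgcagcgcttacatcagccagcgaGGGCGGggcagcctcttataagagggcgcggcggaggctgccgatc
In both, the capitals are GC boxes (GGGCGG or its reverse complement) and a CCAAT box (or its reverse complement).

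The intermediate chain genes of cytoplasmic dynein 1 are shown because the paralogs differed. Dync1i2 (chr2:71211456-71211705, plus strand, the window of 1 of its listed starts) had start peaks of all 3 kinds in every list. Dync1i1 (chr6:5725389-5725638, plus strand) had an ATAC start peak in every list and no acetylation start peak in any. Neither window held a match to the motifs searched, though the window of the other listed start of Dync1i2 held a GC box.
Dync1i2: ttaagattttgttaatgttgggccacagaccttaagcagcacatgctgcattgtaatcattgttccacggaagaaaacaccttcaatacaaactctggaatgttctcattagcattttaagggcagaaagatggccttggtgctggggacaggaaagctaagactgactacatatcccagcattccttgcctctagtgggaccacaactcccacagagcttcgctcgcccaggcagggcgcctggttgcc
Dync1i1: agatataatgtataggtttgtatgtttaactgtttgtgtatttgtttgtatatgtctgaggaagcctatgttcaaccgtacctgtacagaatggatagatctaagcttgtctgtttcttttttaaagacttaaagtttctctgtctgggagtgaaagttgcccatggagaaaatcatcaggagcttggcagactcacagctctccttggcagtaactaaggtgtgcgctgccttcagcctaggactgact

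Tuba3a, an alpha tubulin gene known for its expression in testis, shared the state of Dync1i1. Kif18a had the strongest ATAC start peaks of the members, Kif17 had acetylation start peaks in SNA and none in Sham, and Kif12 had no ATAC or acetylation start peak in any list. They lie at chr6:125286082-125286331 (Tuba3a, minus strand), chr2:109280488-109280737 (Kif18a, plus), chr4:138262001-138262250 (Kif17, plus) and chr4:63172132-63172381 (Kif12, minus).
Tuba3a: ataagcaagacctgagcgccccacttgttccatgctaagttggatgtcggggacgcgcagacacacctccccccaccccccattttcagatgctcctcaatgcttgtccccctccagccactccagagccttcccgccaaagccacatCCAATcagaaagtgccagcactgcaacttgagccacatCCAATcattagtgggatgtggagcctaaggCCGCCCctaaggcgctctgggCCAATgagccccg
Kif18a: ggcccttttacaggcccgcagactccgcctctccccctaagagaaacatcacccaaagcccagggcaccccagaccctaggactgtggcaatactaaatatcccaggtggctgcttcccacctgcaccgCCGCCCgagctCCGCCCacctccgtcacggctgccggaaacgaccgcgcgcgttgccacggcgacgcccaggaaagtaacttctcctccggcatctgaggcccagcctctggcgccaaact
Kif17: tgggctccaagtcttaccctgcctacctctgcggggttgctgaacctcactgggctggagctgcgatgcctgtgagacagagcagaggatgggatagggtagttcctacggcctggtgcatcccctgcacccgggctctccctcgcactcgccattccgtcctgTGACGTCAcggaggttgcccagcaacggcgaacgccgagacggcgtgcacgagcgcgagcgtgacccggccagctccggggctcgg
Kif12: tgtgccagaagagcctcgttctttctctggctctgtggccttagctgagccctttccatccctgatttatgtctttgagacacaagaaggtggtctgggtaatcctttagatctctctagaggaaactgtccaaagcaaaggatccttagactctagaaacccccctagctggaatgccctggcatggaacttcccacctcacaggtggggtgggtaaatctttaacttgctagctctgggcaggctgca
Capitals mark 3 CCAAT boxes and a GC box in Tuba3a, 2 GC boxes in Kif18a and a cAMP response element (CRE, TGACGTCA) in Kif17. The Kif12 window held no match.

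Most member starts were open and carried H3K9ac after every surgery, a larger share than among all genes. Among the 50 members, 44 (Sham), 45 (SNA), 45 (Lam) and 46 (DCA) had an ATAC start peak, which is 88% to 92% beside 68.2% to 70.3% of all genes. H3K9ac start peaks stood at 36, 37, 36 and 42 members in the same order (72% to 84%, beside 50.4% to 59.9%). H3K27ac start peaks stood at 25, 35, 34 and 32 members (50% to 70%, beside 40.5% to 52.1%). In the plot of start peaks by gene, 21 of 50 members (42%, beside 28.9% of all genes) carried all 3 kinds in every list, and 2 members, Kif12 and Kif27, carried none in any (4%, beside 22.3%).

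**Figure D1:**
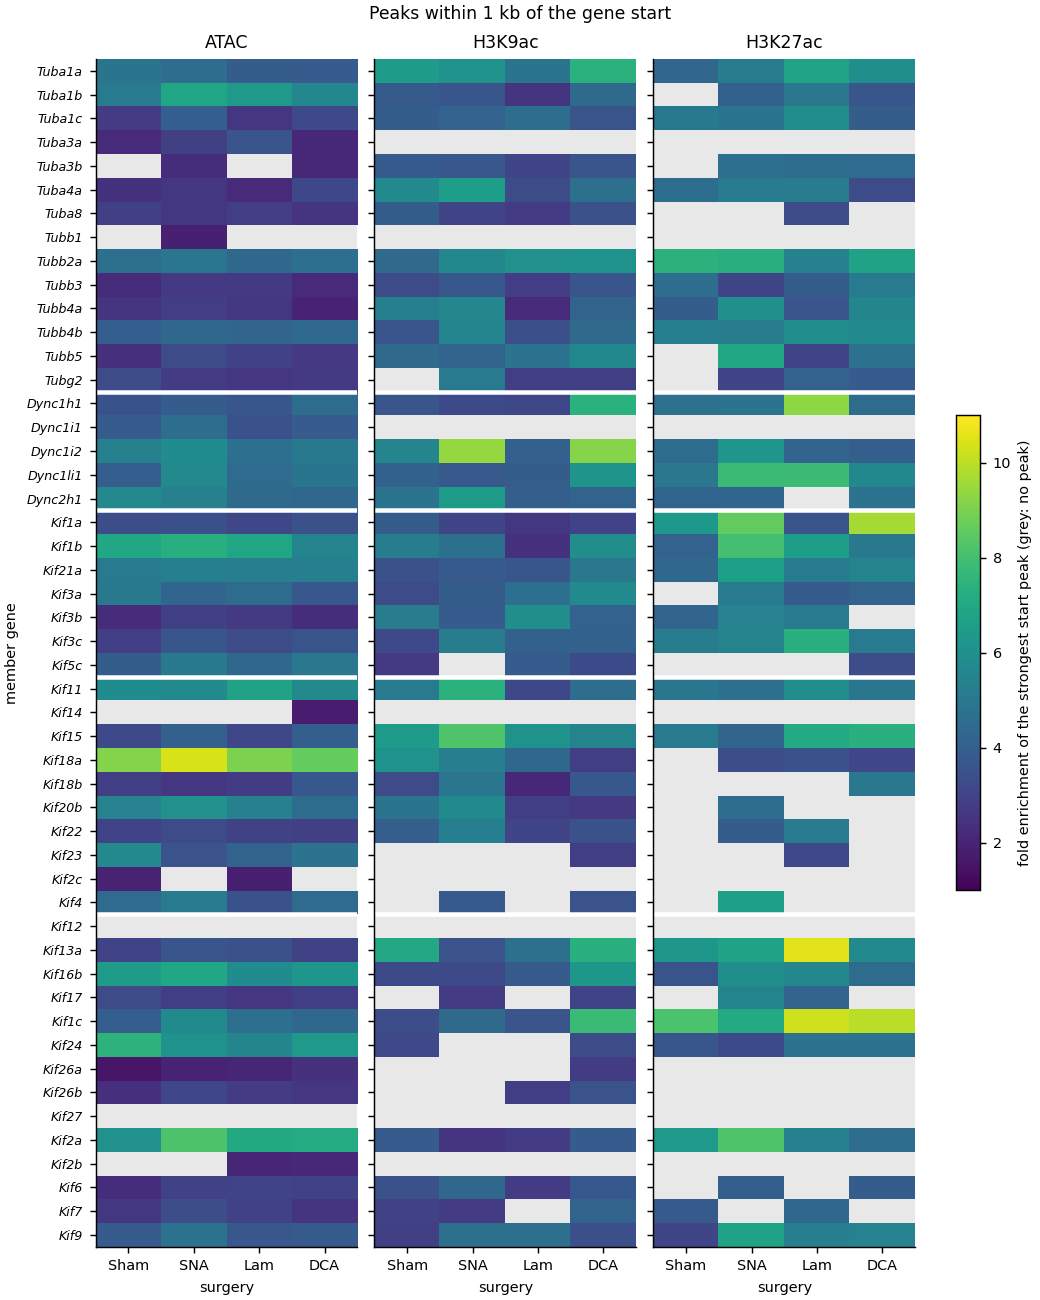
Fold enrichment of the strongest ATAC, H3K9ac or H3K27ac peak within 1 kb of the start (colour; grey, no peak) for 50 members (rows, italic) in the lists of 4 surgeries (columns), with white lines between tubulins, dyneins, transport kinesins, mitotic kinesins and other kinesins. Fold is relative to each list's own background; 21 rows are filled throughout, and the grey cells lie mainly among mitotic and other kinesins.

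The tubulins that make up neuronal and general microtubules were among the steadily marked genes. Tuba1a, Tuba1c, Tuba4a, Tubb2a, Tubb3, Tubb4a and Tubb4b had ATAC, H3K9ac and H3K27ac start peaks in all 4 lists. Tuba1b and Tubb5, both widely expressed tubulins, had the H3K27ac start peak in SNA, Lam and DCA but not in Sham, with H3K9ac and ATAC present throughout. Tubb5 lacked it in Lam too when the lists were cut to equal size. Tuba3b also lacked H3K27ac in Sham only, and its ATAC start peak was listed in SNA and DCA. Tuba8 had H3K9ac in all lists and H3K27ac in Lam alone. Tubb1, the beta tubulin of platelets, and Tuba3a had no acetylation start peak in any list. Tubb1 had an ATAC start peak in SNA only. Gamma tubulin Tubg2 had H3K9ac and H3K27ac start peaks in SNA, Lam and DCA and an ATAC start peak in all. Near-identical tubulin genes can share reads, so a peak at a single paralog is uncertain where reads map to several.

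At the Tuba1a start the strongest H3K9ac peak had a fold enrichment of 6.50 (Sham), 6.12 (SNA), 4.84 (Lam) and 7.38 (DCA). These are the authors' values against each list's own background, and they placed it at rank 500 of 50332 Sham peaks by −log10 p. The Sham peak spans chr15:98953001-98954309 and the SNA peak chr15:98953107-98954606, both across the start. For Tubb2a the H3K27ac start peak had a fold of 7.41, 7.27, 5.40 and 6.75 in the order Sham, SNA, Lam and DCA. Tubb3, the beta tubulin used as a neuronal marker, had weaker H3K27ac start peaks, at 4.60, 3.08, 3.97 and 5.15. Its ATAC peaks in gene and flanks numbered 13 (Sham), 9 (SNA), 8 (Lam) and 7 (DCA), highest in Sham.

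As a family the 7 alpha tubulins held 24 (Sham), 31 (SNA), 33 (Lam) and 32 (DCA) ATAC peaks, and the 8 beta tubulins held 45, 46, 39 and 43. The alpha tubulin H3K27ac peaks numbered 12, 19, 19 and 12, and the H3K9ac peaks 14, 20, 18 and 17. For beta tubulins the H3K27ac numbers were 18, 25, 20 and 20 and the H3K9ac numbers 19, 29, 20 and 31. Sham was the lowest or shared the lowest number in these acetylation series with all peaks. In lists of equal size the tubulins together had 38, 32, 34 and 38 H3K27ac and 44, 43, 48 and 40 H3K9ac peaks, and Sham was no longer the lowest. Tuba1a and Tuba1c each had 2 ATAC peaks in Sham against 5 and 6 in SNA, and both had 5 in Lam and 5 in DCA. The Sham list was thus the low one for these genes, and the sciatic injury list lay close to the lists of the other surgeries. The windows of Tuba1a and Tuba1b overlap and shared 1 ATAC peak in SNA and in DCA.

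The dynein 1 subunits that form the motor's core were marked throughout. Dync1h1, the heavy chain that holds the motor domain, Dync1li1, a light intermediate chain, and Dync1i2, an intermediate chain that binds cargo adaptors, each had ATAC, H3K9ac and H3K27ac start peaks in all 4 lists. Dync1i2 had the highest median H3K9ac start fold of the members, at 5.56 (Sham), 9.42 (SNA), 4.06 (Lam) and 9.19 (DCA). In SNA that peak (chr2:71211629-71212654) ranked 44 of 74652. Dync1li2, for which no start was listed, had ATAC, H3K9ac and H3K27ac peaks within 1 kb of a gene end in every list.

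Dync1i1, the intermediate chain known for its expression in neurons, stood apart from its paralog. Its ATAC start peak had a fold of 3.90 (Sham), 4.60 (SNA), 3.51 (Lam) and 3.87 (DCA), while no H3K9ac or H3K27ac peak lay within 1 kb of the start in any list. Only Tuba3a shared this state among the members (4%, beside 5.49% of all genes). The 302 kb gene held 31, 41, 34 and 22 H3K27me3 peaks in the same order, covering 42.9, 47.2, 47.8 and 17.7 kb. In lists of equal size the H3K27me3 numbers were 21, 24, 21 and 22, and DCA was no longer the lowest. With all peaks the gene held 47, 38, 27 and 35 ATAC peaks, so its highest number was in Sham and its lowest in Lam. Its acetylation peaks in gene and flanks numbered at most 2 in any list.

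Dynein 2, the motor of transport inside cilia, has 2 members here. The heavy chain Dync2h1 had H3K9ac and ATAC start peaks in every list and H3K27ac in all but Lam. Its ATAC peaks numbered 18 (Sham), 20 (SNA), 18 (Lam) and 8 (DCA), and DCA was alone in being low. The listed start of Dync2h1 lies 1.25 kb inside the gene and within 1 kb of the start of Dcun1d5, so a peak there may belong to either gene. Dync2li1, its light intermediate chain, had 4, 6, 4 and 9 ATAC peaks.

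Kinesins that carry cargo in axons had the largest H3K27ac ratio between SNA and Sham among the groups of members described here. The 11 neuronal transport kinesins Kif1a, Kif1b, Kif3a, Kif3b, Kif3c, Kif5a, Kif5b, Kif5c, Kif13b, Kif21a and Kif21b held 59 (Sham), 156 (SNA), 133 (Lam) and 82 (DCA) H3K27ac peaks. The SNA over Sham log2 ratio was 1.40, beside 0.81 over all genes, and the DCA over Lam ratio was −0.70, beside −0.52. Lam over Sham, which compares surgeries without axotomy, gave 1.17, beside 0.64, so the Sham list was low against both. With the H3K27ac lists reduced to equal sizes by −log10 p, the numbers were 59, 91, 70 and 76, and the SNA over Sham ratio was 0.63, beside 0.050 over all genes. The peaks covered 35.7, 88.9, 94.0 and 45.5 kb of the 11 windows.

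**Figure D2:**
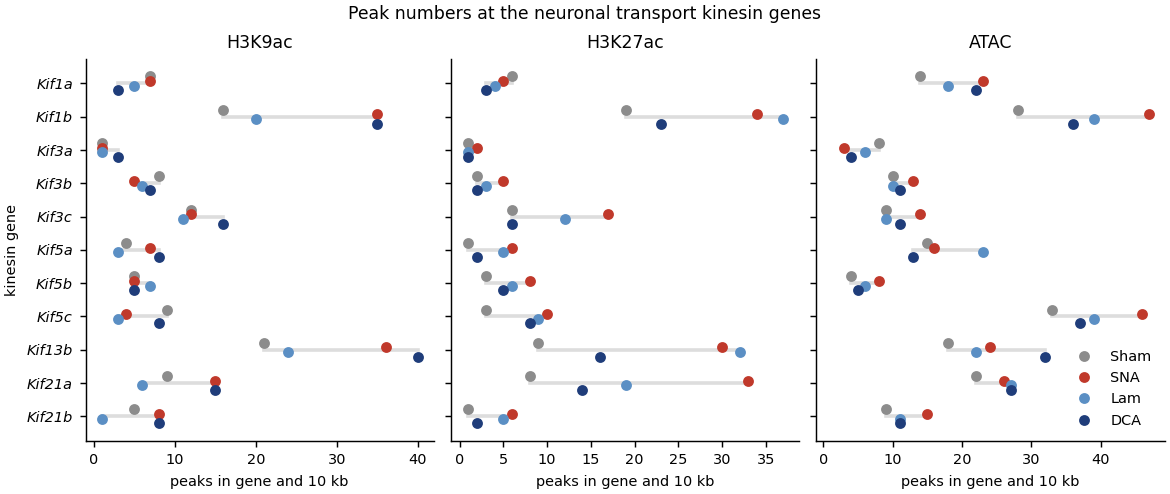
Numbers of H3K9ac, H3K27ac and ATAC peaks (horizontal axes) in each of the 11 neuronal transport kinesin genes with 10 kb on either side (rows), with 1 point for each surgery's pooled list. Kif1b, Kif13b and Kif21a show the widest spread in H3K27ac, with Sham lowest in each when all peaks are counted.

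Kif1b, which transports mitochondria and synaptic vesicle precursors, had the largest excess of ATAC peaks in SNA of all members, with 28 (Sham), 47 (SNA), 39 (Lam) and 36 (DCA). Its H3K27ac peaks numbered 19, 34, 37 and 23. Its H3K9ac peaks numbered 16, 35, 20 and 35, so both injury lists held more than either control list. With lists of equal size the H3K9ac numbers were 16, 28, 20 and 24, with both injuries still above both controls, while the H3K27ac numbers came to 19, 22, 20 and 21 and hardly differed. As the map of the gene shows, acetylation peaks lay at the start, from about 50 kb into the gene and around its end, and also at scattered sites between the start and the middle of the gene in every list but the H3K9ac Sham list. The window also holds part of the gene Pgd, and 40 of the 62 member windows hold another protein-coding gene, so a peak there may belong to either gene.

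Kif21a, a kinesin of axons and dendrites, held 8 (Sham), 33 (SNA), 19 (Lam) and 14 (DCA) H3K27ac peaks. Its H3K9ac peaks numbered 9, 15, 6 and 15, again with both injury lists above both controls. With lists of equal size the H3K27ac numbers were 8, 21, 7 and 13, and SNA remained the highest, while the H3K9ac numbers of 9, 7, 6 and 7 no longer set the injuries apart. Its ATAC peaks numbered 22, 26, 27 and 27. Acetylation peaks in Kif21a lay mainly in the first 60 kb after the start, whereas ATAC peaks were spread over the gene.

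**Figure D3:**
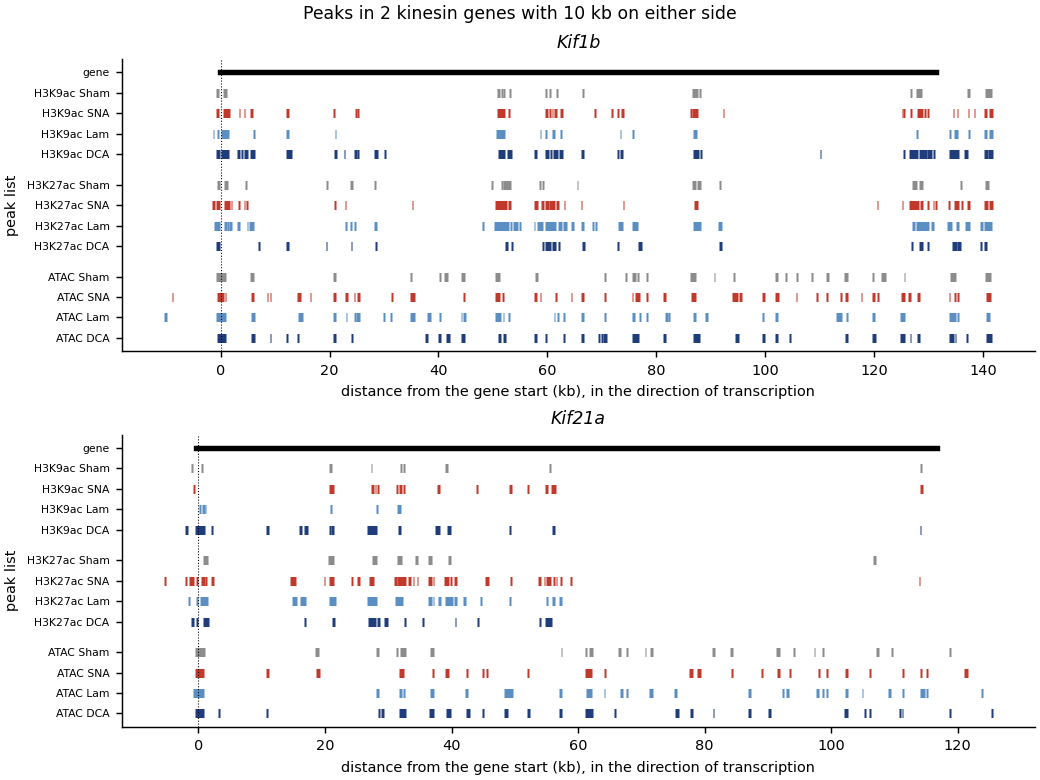
Positions of peaks (bars, drawn to scale) in Kif1b and Kif21a by distance from the gene start in kb, with a row for each assay and surgery and the gene as a black bar. H3K27ac bars of SNA and Lam are denser than those of Sham in both genes, and the acetylation bars of Kif21a lie mainly in the first 60 kb.

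Kif13b, which carries vesicles and phosphoinositide lipids, held 9, 30, 32 and 16 H3K27ac peaks in Sham, SNA, Lam and DCA. Its H3K9ac peaks numbered 21, 36, 24 and 40 and its ATAC peaks 18, 24, 22 and 32. Kif3c, a subunit of kinesin-2, held 6, 17, 12 and 6 H3K27ac peaks, 12, 12, 11 and 16 H3K9ac peaks and 9, 14, 9 and 11 ATAC peaks. With all peaks H3K27ac in both genes was higher in SNA and Lam than in Sham and DCA, and H3K9ac at Kif13b was higher in the 2 injury lists. Equal list sizes gave 21, 24, 24 and 22 H3K9ac peaks at Kif13b and 6, 9, 6 and 6 H3K27ac peaks at Kif3c, so neither pattern held there, and 9, 17, 14 and 13 H3K27ac peaks at Kif13b.

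The kinesin-1 heavy chains Kif5a, Kif5b and Kif5c move many axonal cargoes. Kif5a, the neuronal form, held 1, 6, 5 and 2 H3K27ac peaks, 4, 7, 3 and 8 H3K9ac peaks and 15, 16, 23 and 13 ATAC peaks. Kif5b, the widely expressed form, held 3, 8, 6 and 5 H3K27ac peaks, 5, 5, 7 and 5 H3K9ac peaks and 4, 8, 6 and 5 ATAC peaks. Kif5c held 3, 10, 9 and 8 H3K27ac peaks, 9, 4, 3 and 8 H3K9ac peaks and 33, 46, 39 and 37 ATAC peaks. With all peaks the 3 kinesin-1 genes had their lowest H3K27ac number in Sham and their highest in SNA. Equal list sizes ended this order, with 3, 4, 4 and 5 at Kif5b and 3, 2, 6 and 8 at Kif5c, though Kif5a had 1, 3, 2 and 2. The Kif5c start was open in every list but had H3K27ac in DCA only.

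Kif1a, the motor of synaptic vesicle precursors, had strong H3K27ac start peaks with a fold of 6.31 (Sham), 8.60 (SNA), 3.61 (Lam) and 9.65 (DCA). Its H3K27ac peaks numbered only 6, 5, 4 and 3, its H3K9ac peaks 7, 7, 5 and 3, and its ATAC peaks 14, 23, 18 and 22. Kif1a thus had slightly fewer H3K27ac peaks in SNA than in Sham. Kif21b held 1, 6, 5 and 2 H3K27ac peaks, 5, 8, 1 and 8 H3K9ac peaks and 9, 15, 11 and 11 ATAC peaks. The kinesin-2 motor subunits Kif3a and Kif3b held few H3K27ac peaks, 1, 2, 1 and 1 at Kif3a and 2, 5, 3 and 2 at Kif3b, highest in SNA for both. Their H3K9ac peaks numbered 1, 1, 1 and 3 for Kif3a and 8, 5, 6 and 7 for Kif3b. Kif3a had 8 ATAC peaks in Sham and 3, 6 and 4 in the other lists, and Kif3b had 10, 13, 10 and 11.

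Mitotic kinesins, which build and move the spindle, were largely open at the start. Of the 10 mitotic kinesins with a listed start, 9 (Sham), 8 (SNA), 9 (Lam) and 9 (DCA) had an ATAC start peak. The lists differed only at Kif14, which had that peak in DCA alone, and at Kif2c, which had it in Sham and Lam. Their listed starts lie 1.55 and 3.85 kb inside the gene, and the outer end of each had an ATAC peak in every list. H3K27ac start peaks stood at 2, 6, 5 and 4 of the 10 and H3K9ac start peaks at 6, 7, 6 and 8. The H3K9ac counts lie near or above the share of all genes (50.4% to 59.9%), and the H3K27ac counts are lowest in Sham, where 40.5% of all genes had such a peak. Kif18a, which limits chromosome oscillation on the spindle, had the strongest ATAC start peak of all members, with a fold of 9.15, 10.4, 9.05 and 8.62 in Sham, SNA, Lam and DCA. In Sham it ranked 281 of 153556. Kif15, a spindle motor also found in neurons, had H3K9ac start peaks of 6.50, 8.25, 6.12 and 5.52. Its start lies within 1 kb of that of 1110059G10Rik, so the peak may belong to either gene.

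Per 100 kb of window, the 11 mitotic kinesins held 2.86, 3.41, 3.95 and 3.41 H3K27ac peaks, below the 5.28, 14.0, 11.9 and 7.34 of the transport kinesins in every list. Their ATAC peaks numbered 55, 55, 61 and 63, the same number in Sham and SNA. Among the dividing cell markers with a listed start, 5 of 5 had an ATAC start peak in every list, and 3, 3, 3 and 4 had an H3K9ac start peak. ATAC peaks at all 6 dividing cell markers together numbered 19, 31, 26 and 23. They numbered 1, 5, 3 and 2 at Mki67, 2, 6, 3 and 3 at Cdk1, 6, 9, 8 and 7 at Aurkb, and 4, 5, 3 and 3 at Top2a. Plk1 held 3, 4, 6 and 6, and Ccnb1, with 3, 2, 3 and 2, had fewer in SNA than in Sham. The part of dividing cells in the values of the mitotic kinesins was not tested. Kif2c, a microtubule depolymerase, had an ATAC start peak in Sham (fold 1.98) and Lam (1.87) and no acetylation peak at its listed start, which lies 3.85 kb inside the gene. Its outer end had an ATAC and an H3K27ac peak in all 4 lists and H3K9ac in all but Lam.

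Other kinesins included a start strongly marked by H3K27ac as well as the least marked starts. Kif1c, a vesicle motor, had the highest median H3K27ac start fold, with 8.18, 7.10, 10.3 and 9.97 in the 4 lists, although Kif1a and several others were higher in SNA and Kif13a in Lam, and Inca1 starts within 1 kb of it. Kif2a, a depolymerase that prunes axon branches, had ATAC start folds of 6.05, 8.21, 7.06 and 7.13 and had 1, 4, 3 and 2 ATAC peaks in its window. Kif16b, an endosome motor, held 38, 49, 39 and 39 ATAC peaks. Kif26b, which lacks motor activity and acts in development, held 60, 67, 70 and 59 ATAC peaks over 404 kb, but no H3K27ac start peak in any list. Kif27 had 7 (Sham), 7 (SNA), 5 (Lam) and 14 (DCA) ATAC peaks, none at the listed start, which lies 9.80 kb inside the gene.

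Sciatic axotomy was compared with sham surgery to ask which members differed after peripheral injury. H3K27ac start peaks were gained, meaning present in SNA and absent in Sham, at 11 of 50 members (22%), beside 13.7% of all genes, and lost at 1, Kif7 (2%), beside 2.09%. The 11 were Kif3a, Kif6, Kif17, Kif18a, Kif20b, Kif22, Kif4, Tuba1b, Tuba3b, Tubb5 and Tubg2. H3K9ac start peaks were gained at 3 members, Kif4, Kif17 and Tubg2 (6%, beside 5.13%), and lost at 2, Kif5c and Kif24 (4%, beside 3.61%). ATAC peak numbers were at least 2-fold higher, after adding 1, at 5 of 62 members (8.06%, beside 8.87%), namely Kif2a, Tuba1a, Tuba1c, Tuba3b and Tubb1. They were 2-fold lower at 1, Kif3a (1.61%, beside 4.63%).

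For all members together, H3K9ac peaks numbered 235 (Sham) and 334 (SNA), which gives a log2 ratio of 0.51, beside 0.54 over all genes. H3K27ac peaks numbered 176 and 332 (0.92, beside 0.81), and ATAC peaks 633 and 749 (0.24, beside 0.22). The members' acetylation and ATAC ratios thus lay near those of all genes. Lists of equal size gave a member ratio of −0.012 for H3K9ac and 0.20 for H3K27ac. Of the 332 member H3K27ac peaks in SNA, 218 overlapped no Sham peak, or 65.7% (Wilson 95% interval 60.4% to 70.6%, which covers counting error only), beside 63.9% for all genes. Besides Kif1b and Kif5c, the largest ATAC excesses in SNA were at Kif16b, Kif1a and Kif26b, the last tied with Dync1h1 (17 in Sham and 24 in SNA). In lists of equal size Kif26b had 60 in Sham and 59 in SNA. The largest deficits were at Dync1i1, Kif3a, Tubb3, Kif2c (8 in Sham and 5 in SNA) and Kif28 (12 and 10), the last tied with Kif23, Kif24 and Tuba3a.

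**Figure D4:**
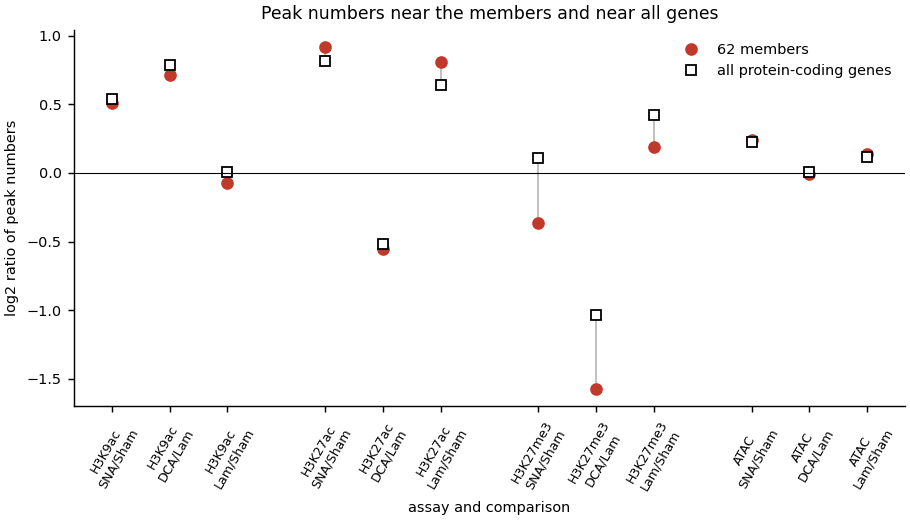
Log2 ratio of peak numbers (vertical axis) near the 62 members (red circles) and near all protein-coding genes (open squares) for each assay and pair of lists. The circle and square lie close together for H3K9ac and ATAC, and the widest gaps are for H3K27me3, at −0.37 against 0.11 for SNA over Sham and −1.58 against −1.04 for DCA over Lam.

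Dorsal column axotomy was compared with laminectomy in the same way for the central injury. H3K9ac start peaks were gained at 6 of 50 members (12%, beside 8.89%), all kinesins: Kif4, Kif7, Kif17, Kif23, Kif24 and Kif26a. They were lost at 0 members, beside 0.572%. H3K27ac start peaks were gained at 4, Dync2h1, Kif5c, Kif6 and Kif18b (8%, beside 2.34%), and lost at 6, Kif3b, Kif7, Kif17, Kif22, Kif23 and Tuba8 (12%, beside 10.2%). ATAC peak numbers were 2-fold higher at 4 members, Dync2li1, Kif27, Tuba3b and Tubb2b (6.45%, beside 7.18%), and 2-fold lower at 2, Dync2h1 and Tuba8 (3.23%, beside 4.98%). Member H3K9ac peaks numbered 223 in Lam and 366 in DCA (log2 ratio 0.71, beside 0.79), H3K27ac peaks 308 and 210 (−0.55, beside −0.52) and ATAC peaks 696 and 694 (−0.0042, beside 0.0094). Lists of equal size gave −0.066 for H3K9ac and 0.067 for H3K27ac, and the signs seen with all peaks did not hold. The q of member H3K9ac peaks was at most 0.05 for 54.9% (Sham), 90.1% (SNA), 80.7% (Lam) and 99.7% (DCA) of them. The shares of all peaks in these lists were close, at 56.1%, 87.7%, 82.0% and 99.0%, so this difference between lists was not particular to the members. The largest ATAC excesses in DCA were at Kif13b, Kif27, Dync1i1, Dync2li1 and Dync1h1 (16 in Lam and 20 in DCA), the last tied with Kif1a and Kif14. The largest deficits were at Kif26b, Kif5a, Dync2h1, Tuba8 (6 and 2) and Kif1b, the last tied with Kif17 and Kif1c.

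The surgeries without axotomy were compared to show how far 2 control lists differ. Between Lam and Sham, H3K27ac start peaks were gained at 10 members (20%, beside 13%) and lost at 1 (2%, beside 2.05%), nearly as many as between SNA and Sham. H3K9ac start peaks were gained at 2 members (4%, beside 5.31%) and lost at 2 (4%, beside 4.14%). ATAC peak numbers were 2-fold higher at 4 members (6.45%, beside 7.05%) and lower at 1 (1.61%, beside 6.54%). Member H3K27ac peaks gave a Lam over Sham log2 ratio of 0.81, and the ratio of SNA over Lam was 0.11. Member H3K9ac gave −0.076 and ATAC 0.14 for Lam over Sham.

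The members with the same start call after both injuries were Kif4, Kif17, Kif6 and Kif7. The share of all genes with such a shared call was not computed, so their number is not read as a result about the members. Kif4, a chromosome-arm kinesin, had an H3K9ac start peak in SNA (fold 3.83) and DCA (3.57) and none in Sham or Lam. Its start lies within 1 kb of that of Pdzd11. Kif17, a kinesin-2 of dendrites and cilia, had H3K9ac start peaks in SNA (2.73) and DCA (3.03) only, and H3K27ac start peaks in SNA (5.50) and Lam (4.25) only. Kif6, a kinesin of motile cilia, had H3K27ac start peaks in SNA (4.04) and DCA (3.95) only. Kif7, the Hedgehog pathway kinesin of the cilium tip, had H3K27ac start peaks in Sham (3.84) and Lam (4.36) only. The median fold of the whole H3K9ac lists was 3.44 in SNA and 3.30 in DCA. When lists had equal size the Kif4 and Kif7 calls held, Kif17 lost its H3K9ac peak in DCA and Kif6 lost its H3K27ac peak in SNA, and with either gene end Kif7 had H3K27ac in all 4 lists. Among peaks whose −log10 q reached 5, none of these 4 calls held for both injuries: Kif4 kept H3K9ac in DCA only, Kif7 kept H3K27ac in Lam only, and Kif17 H3K9ac and Kif6 H3K27ac had no peak in any list.

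H3K27me3 peaks were fewer at the members as a whole in both injury lists than in their control lists, though not in every family. They numbered 280 (Sham), 217 (SNA), 319 (Lam) and 107 (DCA), with a log2 ratio of −0.37 for SNA over Sham (beside 0.11 over all genes) and −1.58 for DCA over Lam (beside −1.04). Covered length was 360, 202, 351 and 76.2 kb. Between Sham and SNA, 26 members had fewer peaks, 11 had more and 25 had the same number. Between Lam and DCA 46 had fewer, 5 more and 11 the same. Such counts were not made over all genes. The median log2 ratio per gene, on H3K27me3 peak numbers plus 1, was 0 for members and 0 for all genes in SNA over Sham. In DCA over Lam it was −1 for members and −0.68 for all genes. Beta tubulins held 15, 4, 21 and 1 of these peaks, alpha tubulins 12, 14, 18 and 5, and the dyneins together 48, 61, 49 and 28, so alpha tubulins and dyneins had more in SNA than in Sham. Kif26b, the longest member, held 52, 31, 48 and 24. In lists of equal size the dyneins together held 30, 39, 26 and 28, so for them DCA was no longer below Lam. Start peaks of H3K27me3 stood at 14, 3, 9 and 0 of 50 members (28%, 6%, 18% and 0%), beside 19.6%, 14.8%, 22.1% and 7.13% of all genes. They included Tuba3a, Tuba4a and Tubb3 in both control lists and in neither injury list. Tuba8 and Kif12 had one in Sham, SNA and Lam.

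These H3K27me3 peaks were weak. A q of at most 0.05 was reached by 9 of the 280 Sham peaks (3.21%), 6 at Kif26b, 2 at Kif27 and 1 at Tubb2a, and by 0 in the other lists. Among all peaks of the lists the shares were 1.31% (Sham), 0.154% (SNA), 0.595% (Lam) and 0.0478% (DCA). The median fold of member peaks was 1.14 to 1.21 over the 4 lists, beside 1.11 to 1.19 for all peaks, so the weakness was shared by the whole lists. With lists of equal size the ratios were −0.63 and −0.79, beside −0.085 and −0.26 over all genes, and −0.23 for Lam over Sham.

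By class median, promoters of marked members were richer in CpG than those of unmarked ones, though the classes overlapped. The 50 members have 55 listed promoters, and over the 250 bases before the start their median CpG observed over expected ratio was 0.73, beside 0.53 for all 21262 promoters. The median was 0.81 for the 26 promoters of members with all 3 kinds of start peak in every list, 0.72 for 21 promoters of members acetylated in some lists, and 0.19 for 8 promoters of members with no acetylation start peak. Dync1i1 (0.20), Kif12 (0.063) and Tuba3a (0.40) lie in the last group, and so does Kif2b, at 0.73. Tuba1c, with all 3 kinds in every list, had 0.22. Kif1a, in the same class as Tuba1c, had 0.062 before 1 listed start and 0.74 before the other. Dync1i2, a marked member, had 0.27 in the window shown but 0.82 before its other listed start. The class of 8 also holds Kif2c, Kif14 and Kif27, whose listed starts lie more than 1 kb inside the gene.

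**Figure D5:**
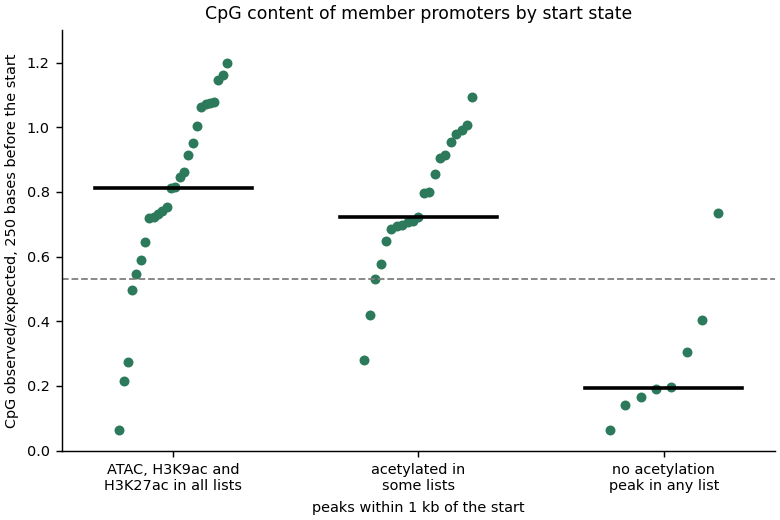
CpG observed over expected ratio in the 250 bases before the start (vertical axis) for 55 member promoters (points) in 3 classes of start state (horizontal axis), with class medians as black bars and the median of all promoters as a dashed line. Medians are 0.81, 0.72 and 0.19 from left to right, against 0.53 for all promoters.

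The GC box was found in 31 of 55 member promoters (56.4%, beside 42.6% of all promoters), and the CCAAT box in 23 (41.8%, beside 35.4%). The cell cycle homology element (CHR, TTTGAA) was in 10 (18.2%, beside 14.5%), of which 5 belong to the 10 mitotic kinesin promoters. Those 5 include Kif14 and Kif2c, whose listed starts lie well inside the gene. A CRE was in 3, those of Kif17, Kif5c and Tubb2a (5.45%, beside 1.92%). The AP-1 motif TGANTCA, to which Jun and Fos bind, was in 0 of 55, beside 6.13%. The ETS motif CCGGAAG was in 7 (12.7%, beside 8.98%), TATAAA in 6 (10.9%, beside 11.6%) and the NRF1 motif in 1 (1.82%, beside 1.07%). Motifs were counted on both strands and could overlap, and a match is a match of letters only.

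Partner genes of the motors also mostly had ATAC and H3K9ac start peaks, less so the microtubule-associated genes. Of 7 such genes with a start, 3, 4, 3 and 6 had H3K9ac and 3, 4, 4 and 5 had H3K27ac there in Sham, SNA, Lam and DCA. The H3K27ac calls of all partner genes are to be read against the shares of all genes. These were 13.7% gained and 2.09% lost in SNA over Sham, 2.34% and 10.2% in DCA over Lam, and 13% and 2.05% in Lam over Sham. Of 19 dynactin and dynein regulator genes with a listed start, 18, 18, 17 and 19 had an H3K9ac start peak in Sham, SNA, Lam and DCA, and all 19 had an ATAC start peak in each list. H3K27ac start peaks were gained at 3 of these 19 and lost at 0 in SNA over Sham, and gained at 1 and lost at 1 in DCA over Lam. Among 11 genes of tubulin folding and modification, H3K27ac start peaks were gained at 3 and lost at 0 in SNA, gained at 0 and lost at 5 in DCA, and gained at 3 and lost at 0 in Lam over Sham. Those lost in DCA included Atat1, the alpha tubulin acetyltransferase, and Hdac6, a tubulin deacetylase. Kinesin light chains and adaptors (7 with a start) gained 0 and lost 0 in SNA, and gained 1 and lost 0 in DCA. Of 6 nucleation and severing genes, 2 gained H3K27ac and 0 lost it in SNA, and 0 gained and 0 lost it in DCA. Of 7 microtubule-associated genes, 1 gained and 0 lost it in SNA, and 1 gained and 0 lost it in DCA. In Lam over Sham, dynactin and dynein regulators gained 3 and lost 1, and kinesin light chains and adaptors gained 0 and lost 1. Nucleation and severing genes gained 2 and lost 0 there, and microtubule-associated genes gained 1 and lost 0. In each partner list the number gained was thus the same in Lam as in SNA. Stmn2, a tubulin-binding protein of growing axons, held 9, 19, 15 and 14 ATAC peaks.

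The cell mixture sets what these lists can show: a mark in fewer cells and a weaker mark in each cell cannot be told apart. Of 7 sensory neuron markers with a listed start, 6, 7, 7 and 7 had an ATAC start peak in Sham, SNA, Lam and DCA, but only 0, 2, 1 and 3 had H3K9ac there and 0, 3, 3 and 3 had H3K27ac. Of 4 satellite glia and Schwann cell markers, 3, 4, 4 and 4 had an H3K9ac start peak and 3, 4, 4 and 2 an H3K27ac start peak. Macrophage markers (4 with a start) and epithelial markers (3) had 0 acetylation start peaks in any list. ATAC start peaks stood at 3, 3, 3 and 4 of the glial, 1, 1, 2 and 1 of the macrophage and 2, 2, 1 and 2 of the epithelial markers. An open start was thus also seen at markers of a tissue expected to be absent. H3K27ac peaks in gene and flanks numbered 1, 9, 6 and 6 at the sensory neuron markers and 58, 112, 88 and 62 at the glial markers. At the epithelial markers, expected to be absent, they numbered 18, 31, 28 and 33, more than at the sensory neuron markers. Sham was lowest in each of these, as at the transport kinesins and in the list as a whole. It was not lowest at the macrophage markers (8, 7, 7 and 10) or the dividing cell markers (6, 9, 9 and 5). The part of cell composition in the members' values was not tested.

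The 12 members without a listed start are Dync1li2, Dync2li1, Kif5a, Kif5b, Kif13b, Kif19a, Kif20a, Kif21b, Kif28, Tubb2b, Tubb6 and Tubg1. All but Kif28 had an ATAC peak within 1 kb of a gene end in every list, and Kif28 had one in all but Lam and no acetylation peak. Tubb2b, Tubg1, Kif5b, Kif13b, Kif19a, Kif20a and Dync1li2 had both acetylation marks at an end in all lists. Tubb6 and Dync2li1 lacked H3K27ac in DCA, Kif5a lacked it in Sham, and Kif21b lacked it in DCA and lacked H3K9ac in SNA and Lam.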

How the data were processed

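Peak lists were used as deposited by the authors, 1 per assay and surgery with replicates pooled, per the labels. The build is mm10, per the submitters' processing notes. The aligner and peak caller are not given in the sources used here. The deposited fold enrichment is a ratio over the caller's background, and the deposited −log10 p and −log10 q are those of the caller. Ranks were taken within a list. Fold values were also set side by side across lists, and the median start fold was taken over the lists with an absent peak set to 1. The limits of a q of at most 0.05 and a −log10 q of at least 5 were applied to every list, and the resulting shares and numbers were compared between lists. Since fold is relative to each list's own background, these comparisons between lists are descriptions only. Read depth is unknown. Lists held 43803 to 89647 narrow acetylation peaks, 90011 to 154055 H3K27me3 peaks and 153556 to 174605 ATAC peaks, after repeated ATAC summits of an interval were collapsed to that with the highest −log10 p. Peaks were counted with Python 3.11.15, numpy 2.4.6 and pandas 2.3.3, tested on simulated data.

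Gained and lost start peaks and 2-fold differences in (ATAC peaks + 1) are descriptions, with the share of all genes beside them. Members and lists were chosen with earlier results of these data known. Text names tubulins, dyneins, transport kinesins, start calls shared by both injuries, the 5 largest ATAC differences each way and the 3 strongest starts per assay; others named were chosen after their values were seen. Alternatives were a −log10 q of at least 5, equal list sizes, gene bodies alone, peak midpoints, 2 kb starts and, added after seeing the data, either gene end, Lam for Sham and covered length.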

Additional observations from a re-analysis of the deposited data

Results flagged for a closer look

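Member H3K27ac peaks gave a log2 ratio of 0.92 (SNA over Sham) and one of −0.55 (DCA over Lam), a difference of 1.47 between the peripheral and the central injury. The ratios over all genes differ in the same way (0.81 and −0.52). In lists of equal size they were 0.20 and 0.067 for the members, of the same sign. The difference was not tested, since each list is a single pooled list.

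For H3K9ac, 1 member, Kif24, had a start peak lost in SNA over Sham and gained in DCA over Lam. Kif24 had the peak in Sham (fold 3.20) and DCA (3.27) only, and its start lies within 1 kb of that of Nudt2. For H3K27ac, 2 members, Kif17 and Kif22, had a start peak gained in SNA over Sham and lost in DCA over Lam, since both had it in SNA and Lam only. Among peaks whose −log10 q reached 5, Kif24 had the peak in DCA only, so its loss in SNA was no longer seen. With either gene end in place of the listed start, Kif22 had H3K27ac in all 4 lists and Kif24 had H3K9ac in SNA too. These opposite directions were not tested, and the share of all genes with opposite calls was not computed.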

How the results depend on the processing

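The member log2 ratios moved most with list size and peak strength. With lists of equal size, H3K9ac gave −0.012 (SNA over Sham) and −0.066 (DCA over Lam), and H3K27ac gave 0.067 (DCA over Lam), all of opposite sign to the values with all peaks. H3K27ac then gave 0.20 for SNA over Sham and 0.10 for Lam over Sham, and H3K27me3 gave −0.63, −0.79 and −0.23 for SNA over Sham, DCA over Lam and Lam over Sham, the last of opposite sign to the 0.19 with all peaks. Among peaks whose −log10 q reached 5, H3K9ac gave 1.91, 2.22 and 1.58 in that order. ATAC gave 0.68 for SNA and 0.31 for DCA, and H3K27ac 0.23 for SNA over Sham and 0.54 for Lam over Sham. All genes at this setting gave H3K9ac ratios of 1.86 for SNA over Sham and 1.71 for Lam over Sham. Their DCA over Lam ratio for H3K9ac was above that of the members. ATAC over all genes gave 0.66 for SNA and 0.31 for DCA, and H3K27ac 0.072 for SNA over Sham and 0.55 for Lam over Sham. The large H3K9ac ratios were thus not particular to the members. H3K27me3 had no member peak left there and gave no value. With the Lam list in place of Sham, H3K27ac gave 0.11 for SNA. By covered length, H3K27me3 gave −0.83 for SNA and −2.20 for DCA, and H3K9ac 1.25 for DCA.

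Counts of members moved too. Shares of all genes were not computed at these settings, so the counts are not read as a result about the members. At a −log10 q of at least 5, H3K9ac peaks near all genes numbered 2015 (Sham), 7301 (SNA), 6576 (Lam) and 37306 (DCA). With a −log10 q of at least 5, H3K9ac start peaks were gained at 13 and lost at 1 in SNA, gained at 21 in DCA and gained at 12 in Lam over Sham, H3K27ac was lost at 2 in SNA and 10 in DCA, and ATAC was higher at 13 and lower at 0 in SNA and lower at 2 in Lam over Sham. With equal sizes, H3K9ac was gained at 3 and lost at 1 in DCA, H3K27ac was lost at 3 in SNA, gained at 7 in DCA, and gained at 6 and lost at 2 in Lam over Sham, and ATAC was lower at 3 in Lam over Sham. Gene bodies alone gave 0 members lower in ATAC for Lam over Sham, and a 2 kb start gave 2 H3K27ac losses in SNA. Either gene end gave 0 H3K27ac losses in SNA and 0 in Lam over Sham, and 5 H3K9ac gains in SNA and 1 gain and 4 losses in Lam over Sham. The cause was not tested. No paired analysis was possible because the authors pooled replicates into each list, and for the same reason no replicate could be left out.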
